A study of Mus musculus with 41 samples.

Results

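The regions described here were SOX9 sites of mouse epidermal stem cells (EpdSCs) that already carried the enhancer enzymes MLL3/4 before SOX9 was switched on, were bound at 1, 2 and 6 weeks of SOX9 induction, and had no SOX9 peak at 12 weeks. They were chosen by the peak lists themselves. The SOX9 peaks of weeks 1, 2, 6 and 12 (W1, W2, W6 and W12) were merged where they overlapped by at least 1 bp, into 28549 regions. A region was kept when peaks of W1, W2 and W6 and an MLL3/4 peak of day 0 (D0, before induction) overlapped it, and when no SOX9 peak of W12 or D0 did. This left 3943 regions, 13.8% of the whole, on 20 chromosomes. The presence of these peaks is therefore no finding, and the W12 list, the W1 to W6 lists and the D0 MLL3/4 list are described below without a test. Sequence, position in the genome, MLL3/4 at W1 and W2 and the lists from cultured cells had no part in the choice. The choice by D0 MLL3/4 still bears on comparisons in the other MLL3/4 lists with regions not chosen by it.

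SOX9 is a transcription factor that bends DNA through its HMG domain and can bind sites in closed chromatin. In skin it is normally a factor of the hair follicle and not of the epidermis between follicles. MLL3 and MLL4 are large methyltransferases that place the H3K4me1 mark on enhancers, and peaks at D0 are sites where they were found before induction. Epidermal identity is kept by factors such as p63, GATA3, the grainyhead-like (GRHL) proteins, KLF4 and AP-2, whose genes have many enhancers in keratinocytes.

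The proteins were mapped with CUT&RUN (CNR), in which a nuclease tethered by an antibody releases the DNA around a protein. EpdSCs were sorted from the back skin of male CD1 mice carrying K14rtTA and TRE-myc-Sox9, so that doxycycline (DOX) induced MYC-tagged SOX9 in cells with an active Krt14 promoter. The sort took CD49f-high, Ly6A-high cells that were negative for CD31, CD45, CD117, CD140a and CD34. Mice carried both transgenes at D0 too. Their age was 21 postnatal days at D0 and 28, 35 and 63 days for the W1, W2 and W6 lists. The W12 cells came from newborn skin grafted onto immunocompromised female hosts and then given DOX, so the W12 list differed from the others in grafting, host and age as well as in weeks of SOX9, and these cannot be told apart. In culture, keratinocytes expressed WT-SOX9, a form that lacks the transactivation domain (dTA) or one that lacks the HMG domain (dHMG), with DOX at 1 µg per ml. WT-SOX9 cells were also kept without DOX. Each group stood behind 1 list called on 2 pooled samples, so there was no spread between replicates and no test between weeks. Only the cultured groups without DOX had a further list, called on the first sample alone. In pooled cells, a site bound in fewer cells and a site bound more weakly in each cell cannot be told apart. Shares are given with 95% Wilson intervals and differences of shares with 95% Newcombe intervals, which cover counting error over regions only.

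All 6 epidermal keratinocyte genes looked up (Krt5, Krt14, Itga6, Itgb4, Trp63 and Col17a1) had D0 MLL3/4 peaks within 10 kb, 4 to 19 each. Of the fibroblast genes 1 of 5 had one (Pdgfra, 2 peaks), with Col1a1, Col3a1, Dcn and Twist2 at 0. Of the endothelial genes 2 of 4 had one, with 13 peaks at Pecam1 and 0 at Cdh5 and Kdr. Of the immune genes 3 of 5 had 2 to 4 peaks, with Ptprc and Cd74 at 0, and of the melanocyte genes 3 of 4 had 1 each. Of the hair follicle stem cell genes 2 of 5 had a peak, 8 at Nfatc1 and 1 at Lhx2, with Cd34, Lgr5 and Tbx1 at 0. The part of other cell types in the results was not tested.

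The members with the strongest and most even SOX9 binding came first. Ranked by their lowest percentile over the W1, W2 and W6 lists, 6 regions stood highest. The W2 maximum of each, with 50 bp to each side, is printed to give the sequence under sites that were strong for 6 weeks and then missing. Coordinates are mm10, sequences are the plus strand of the RefSeq GRCm38.p6 genome, and capitals mark the SOX core, spelled CATTGT or else spelled CTTTGT, with the reverse complements being ACAATG for the former and ACAAAG for the latter.
Btbd1 intron, chr7:81825109-81825209: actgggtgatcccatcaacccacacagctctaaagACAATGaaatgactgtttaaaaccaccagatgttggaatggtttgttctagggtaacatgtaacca
Nav2 intron, chr7:49397073-49397173: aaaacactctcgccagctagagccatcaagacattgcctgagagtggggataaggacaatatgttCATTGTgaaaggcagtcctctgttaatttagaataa
Intergenic, nearest Thbs1, chr2:117821220-117821320: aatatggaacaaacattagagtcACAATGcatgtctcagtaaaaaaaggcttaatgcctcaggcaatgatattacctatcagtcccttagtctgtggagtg
Intergenic, nearest Mtus1, chr8:41134819-41134919: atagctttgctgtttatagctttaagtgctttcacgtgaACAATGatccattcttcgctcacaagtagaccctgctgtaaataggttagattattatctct
Intron of a gene that is not protein-coding, nearest Tmx1, chr12:70523735-70523835: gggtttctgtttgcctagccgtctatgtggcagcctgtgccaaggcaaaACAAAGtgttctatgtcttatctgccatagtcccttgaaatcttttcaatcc
Atp6v0a4 intron, chr6:38097392-38097492: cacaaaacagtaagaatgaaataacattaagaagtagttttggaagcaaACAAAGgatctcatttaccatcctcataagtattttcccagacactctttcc
Each of these 6 windows held 1 SOX core. Over all members the core was found in 657 windows, 16.7% (15.5 to 17.9).

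The region in Btbd1, a substrate adaptor gene, spanned chr7:81824747-81826204 and lay 3896 bp from the nearest protein-coding start. Its maximum SOX9 signal in W1, W2 and W6 was 10315, 9473 and 6590.4 RPKM, that is fragments per kb scaled to library size by the authors. That was 179, 124 and 157 fragments. It was thus far above the 1800 RPKM that the authors required of a peak, in all 3 weeks, and had no W12 peak within 11242 bp. Its MLL3/4 maximum, in unscaled coverage that cannot be compared between lists, was 5, 8 and 11 in the D0, W1 and W2 lists.

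The region in Nav2, a gene of neurite growth, was 2760 bp wide and reached 7318, 10161 and 6423 RPKM in these weeks. A W12 peak lay 1665 bp away. The intergenic region 290606 bp from Thbs1, the gene of thrombospondin 1, reached 7549, 11154 and 6297 RPKM in the same order, the highest W2 maximum of any member. It had the strongest MLL3/4 peak of the 6, at 35, 31 and 35. The region 1143 bp from a start of Mtus1 reached 8586, 6647 and 6171 RPKM and lay 2238 bp from a W12 peak. The region nearest to Tmx1 reached 8183, 10314 and 5457 RPKM. The region in Atp6v0a4, a proton pump subunit gene, lay 257 bp from its nearest start and reached 5128, 7334 and 6045 RPKM. All 6 were lowest at W6, except the one in Atp6v0a4, which was lowest at W1. Each overlapped an MLL3/4 peak at W1 and at W2, and none of the 6 overlapped a MYC-tag peak of WT-SOX9 in culture.

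For the 3943 members together, the maximum SOX9 signal had medians of 2593, 3438 and 2645 RPKM in W1, W2 and W6. The ranges were 1844 to 10430 RPKM in the W1 list, 1834 to 11154 in the W2 list and 1805 to 6590.4 in the W6 list. These medians stood for 45, 45 and 63 fragments, because 1 fragment was worth 42.0 to 76.4 RPKM in the lists of W1 to W6. The closest comparison is with the 2607 persistent regions, which met the same rule but kept a W12 peak. Their medians were 3573, 4507 and 4114 RPKM, with 2436 in the W12 list. Members were weaker in each week, and at W6 the ranges between quartiles did not overlap, since the members' upper quartile was 3190.3 and the persistent regions' lower quartile 3274. Regions of the 2 classes had median widths of 812 and 911 bp.

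**Figure D1:**
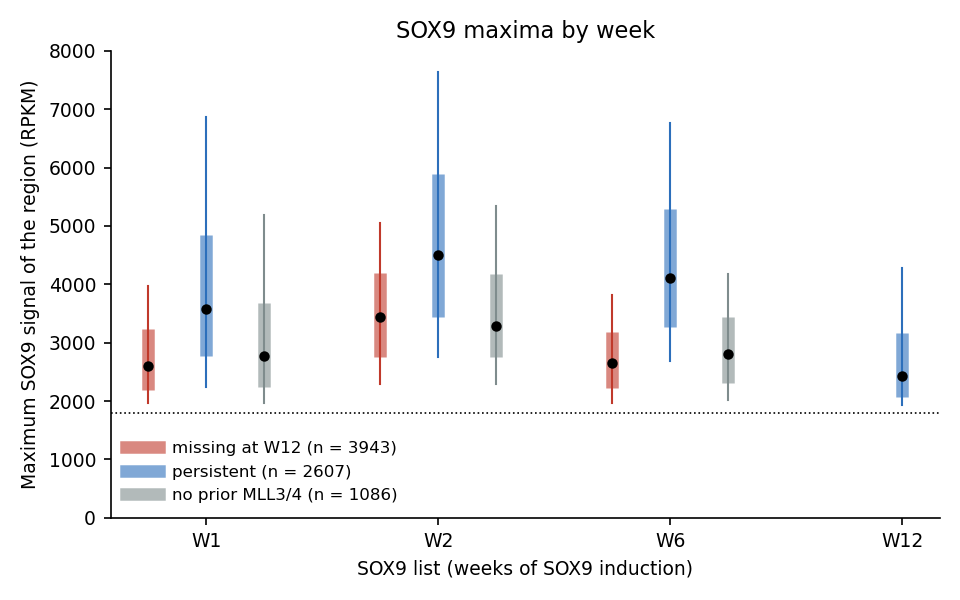
Maximum SOX9 signal in RPKM (vertical axis) by SOX9 list (horizontal axis) for members (red), persistent regions (blue) and regions missing at W12 without a D0 MLL3/4 peak (grey). Thick bars span the quartiles, thin lines the 10% to 90% quantiles, dots are medians over regions, and the dotted line is the limit of 1800 RPKM; the members' W6 median of 2645 lies nearer to that line than the persistent regions' 4114.

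Scaling differs between libraries, so ranks within a list were also taken. The median percentile of the members was 46.1 in the W1 list, 59.0 in the W2 list and 46.9 in the W6 list. Persistent regions stood at 72.8, 78.3 and 79.4. From W2 to W6 the percentile fell in 2679 members (67.9%), with a median change of -10.3, while it fell in 1271 persistent regions (48.8%), with a median change of 0.206. The lists differ in length, at 15651, 18657 and 20579 peaks, and absence at W12 goes with W6 strength, so these percentiles describe the choice of members and not a course in time.

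Absence at W12 followed the strength at W6. When the 6550 members and persistent regions were put into 5 bins of W6 maximum, the share missing at W12 was 92.7% (91.2 to 93.9) in the weakest bin, from 1805 to 2309 RPKM. It was 81.0%, 68.4% and 44.5% in the next bins and 11.4% (9.77 to 13.2) in the strongest, from 4366 RPKM upwards. Over all bins it was 60.2% (59.0 to 61.4). Of regions without a D0 MLL3/4 peak, bound in the same 3 weeks, 36.1% (34.4 to 37.8) were missing, 1086 of 3010. Of these, 1361 lay in the strongest bin, and the share by bin was 88.3%, 71.6%, 58.2%, 36.5% and 6.69%. Where both D0 marks were present, MLL3/4 and SOX9, 97 of 662 regions were missing, 14.7% (12.2 to 17.6). As the rule uses these lists, the shares are a description.

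**Figure D2:**
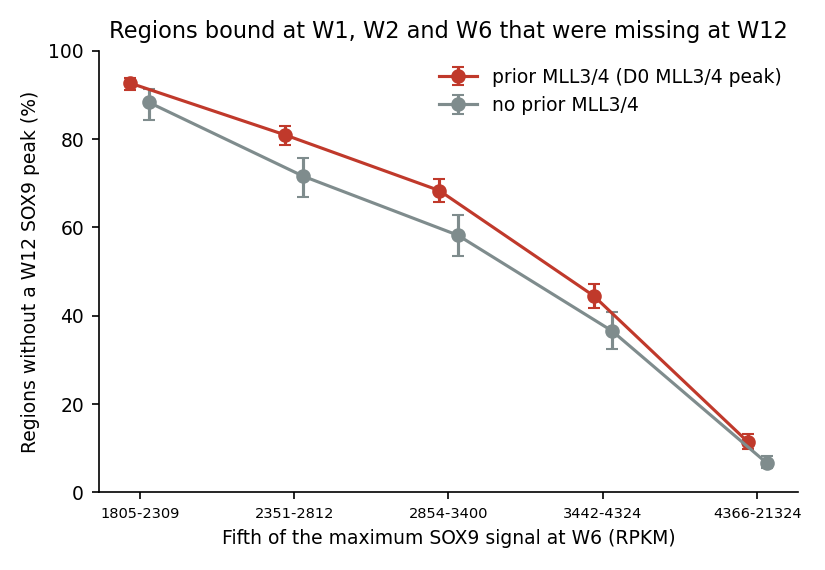
Share of regions without a W12 SOX9 peak (vertical axis, percent) by bin of W6 maximum (horizontal axis, RPKM), for regions bound at W1, W2 and W6 with (red) and without (grey) a D0 MLL3/4 peak, with 95% Wilson intervals. Both lines fall with W6 strength, from 92.7% to 11.4% with prior MLL3/4, and from 88.3% to 6.69% without it.

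The limit on peaks bears on what missing means. In persistent regions the W12 maximum was 0.633 of the W6 maximum (median, quartiles 0.529 to 0.768). These regions were chosen for having a W12 peak above the limit, so the ratio may lie too high for members and what follows is a description. Multiplied by that ratio, the W6 maximum of 2511 members (63.7%) would lie under the weakest W12 peak of 1838 RPKM, as would that of 405 persistent regions (15.5%). For 1432 members it would not. Signal below the limit is not in the list, so a member may still have carried SOX9 at W12. At the edge of the rule, persistent regions tied at the weakest W12 maximum of 1838 RPKM, or 40 fragments, and those nearest to Iyd, Prrc2b and Clca1 are examples. The first had 2651, 2445 and 1805 RPKM in the 3 earlier lists. The member near Ogfrl1, one of those tied at the lowest W6 maximum, had 1844, 3361 and 1805 RPKM and no W12 peak within 36244 bp. The nearest W12 peaks to any member lay 19, 41 and 44 bp away, near Inpp4b, Sgms1 and Clmp.

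The median gap from a member to the nearest W12 peak was 27226 bp. It was within 1000 bp for 198 members (5.02%), within 10000 bp for 1151 (29.2%) and within 100000 bp for 3144 (79.7%). Counting as missing only regions with no W12 peak within 1 kb left 57.2% missing in place of 60.2%.

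MLL3/4 was on most members at W1 and at W2, the weeks of SOX9 induction with an MLL3/4 list. At W1, 3590 members (91.0%, 90.1 to 91.9) overlapped an MLL3/4 peak, against 59.8% of all merged regions and 7.95% of members moved by 10 kb. At W2 it was 3608 (91.5%, 90.6 to 92.3), against 60.1% of all merged regions. Members had to overlap a D0 MLL3/4 peak and the merged regions did not, so the choice bears on both comparisons. Both weeks had a peak in 85.3% of members and neither in 110 members (2.79%). In persistent regions the shares were 96.4% and 95.7%. The difference was -5.31 points (-6.45 to -4.15) at W1 and -4.24 (-5.39 to -3.05) at W2. With lists cut to the length of the W12 list it was -0.834 points (-1.72 to -0.0279) at W1 and -0.974 (-1.81 to -0.225) at W2. Within bins of W6 maximum it was -2.97 points (-4.54 to -1.41) at W1, and at W2 its interval then reached 0, at -1.70 points (-3.44 to 0.0414). Regions missing at W12 without D0 MLL3/4 had MLL3/4 peaks at W1 in 69.5% of cases, a share that the choice by D0 MLL3/4 bears on.

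MLL3/4 peaks were also ranked. Ranked by total signal within the D0 list, members had a median percentile of 76.8 (quartiles 57.0 to 89.8) and persistent regions 78.3 (55.5 to 90.7). The rule used the D0 list, so these values are a description. At W1 the members' median was 76.4 and that of persistent regions 85.3, and the means differed by -8.00 points (-9.06 to -6.95). At W2 the medians were 76.1 and 83.6, and the means differed by -6.70 points (-7.82 to -5.59). The ranks stand in lists of 37072, 31539 and 29281 peaks of unknown depth, and over only the regions with a peak in that list, so they compare the classes within a list and not one class between weeks. Within bins of W6 maximum the gap was -2.92 points (-4.40 to -1.44) at W1 and 0.0262 (-1.58 to 1.63) at W2.

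Members lay closer to transcript starts. A promoter, here within 1 kb of any annotated transcript start (GENCODE vM21), held the W2 maximum of 1397 members (35.4%, 34.0 to 36.9), against 26.4% of all regions with a W2 peak and 23.3% (21.7 to 25) of persistent regions. The difference was 12.1 points (9.88 to 14.3), 5.64 (2.56 to 8.71) within bins of W6 maximum and 4.33 (1.54 to 7.13) with lists cut to the length of the W12 list. Members exceeded persistent regions in each bin, from 36.8% against 28.4% in the weakest to 21.1% against 15.7% in the strongest. Among regions above 3600 RPKM at W1, W2 and W6, of which 193 were members and 1046 persistent, the difference was 0.584 points (-4.86 to 7.06) and its interval included 0. Regions missing at W12 without D0 MLL3/4 were at promoters in 13.1% of cases. The median distance of members to a protein-coding start was 7393 bp, against 14698 bp in persistent regions. By annotation, 46.4% of the members' maxima were intergenic, 42.0% intronic and 11.6% exonic. In persistent regions these shares were 45.8%, 47.4% and 6.79%. CpG dinucleotides, which are dense in many promoters, averaged 2.69 per window of 50 bp to each side of the maximum (2.60 to 2.78) in members and 1.77 (1.69 to 1.85) in persistent regions.

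Sequence words of transcription factor families were then counted in the same window of 50 bp to each side of the W2 maximum, on both strands. The SOX word, the core with C or G before it, was searched as CCATTGT, likewise as CCTTTGT, further as GCATTGT and lastly as GCTTTGT. It was in 360 members, 9.13% (8.27 to 10.1), against 15.7% of all regions with a W2 peak. Windows 1 kb to each side of members had it in 6.0%. Persistent regions had it in 17.1% (15.7 to 18.6) and the 1086 regions missing at W12 without D0 MLL3/4 in 26.6%. The difference was -7.98 points (-9.70 to -6.29) from persistent regions and -17.5 points (-20.3 to -14.8) from regions missing at W12 without D0 MLL3/4. Within bins of W6 maximum the difference from persistent regions was -3.11 points (-5.25 to -0.967). SOX words became more common with strength in both classes. In the weakest bin they were in 7.70% of 1286 members and 7.84% of persistent regions. In the strongest they were in 15.0% of 147 members and 23.0% of persistent regions.

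The AP1 word (TGACTCA or TGAGTCA), bound by FOS and JUN proteins, was the commonest of the 8 in members, at 545 (13.8%, 12.8 to 14.9), against 15.7% of all regions with a W2 peak and 2.0% in windows 1 kb away. Persistent regions had it in 24.4% (22.8 to 26.1). The difference of -10.6 points (-12.6 to -8.65) was -5.56 (-8.20 to -2.91) within bins of W6 maximum. Above 3600 RPKM it was -3.77 (-8.86 to 2.44) and its interval included 0. Members still had the AP1 word more often than regions missing at W12 without D0 MLL3/4, by 5.35 points (3.27 to 7.23). Neither the SOX core nor the AP1 word was found in 2827 members (71.7%), against 52.6% of persistent regions.

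KLF, NFY, GATA and ETS words were more frequent in members than in persistent regions. KLF (CCACCC) was in 10.5% against 8.13%, with 9.15% of all regions with a W2 peak. NFY (ATTGGCT), the CCAAT box of many promoters, was in 6.97% against 4.91%, with 4.32% of all. GATA, spelled AGATAAC or else spelled AGATAAG, was in 2.79% against 1.80%, with 2.72% of all, and ETS (CCGGAAG) in 2.03% against 0.652%, with 1.56% of all. These differences were 0.987 to 2.34 points, with intervals that left out 0. Above 3600 RPKM the intervals of all 4 included 0, with the KLF difference at 0.260 points, NFY at 3.28, GATA at 1.81 and ETS at -0.0555. So did those of NFY within bins of W6 maximum, at 1.36 points (-0.237 to 2.95), and of GATA with peaks merged within 500 bp, at 0.714 (-0.0613 to 1.46). The GATA word in members was near the 2.27% of the windows 1 kb away. RUNX (AACCACA) was at 1.55% in members against 2.30% (2.05% of all), a difference of -0.754 points (-1.49 to -0.0846) whose interval included 0 within bins of W6 maximum, at -1.08 points (-2.18 to 0.0250). TEAD (GGAATG) was at 6.26% against 7.06% (6.83% of all), a difference of -0.794 points (-2.06 to 0.426).

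**Figure D3:**
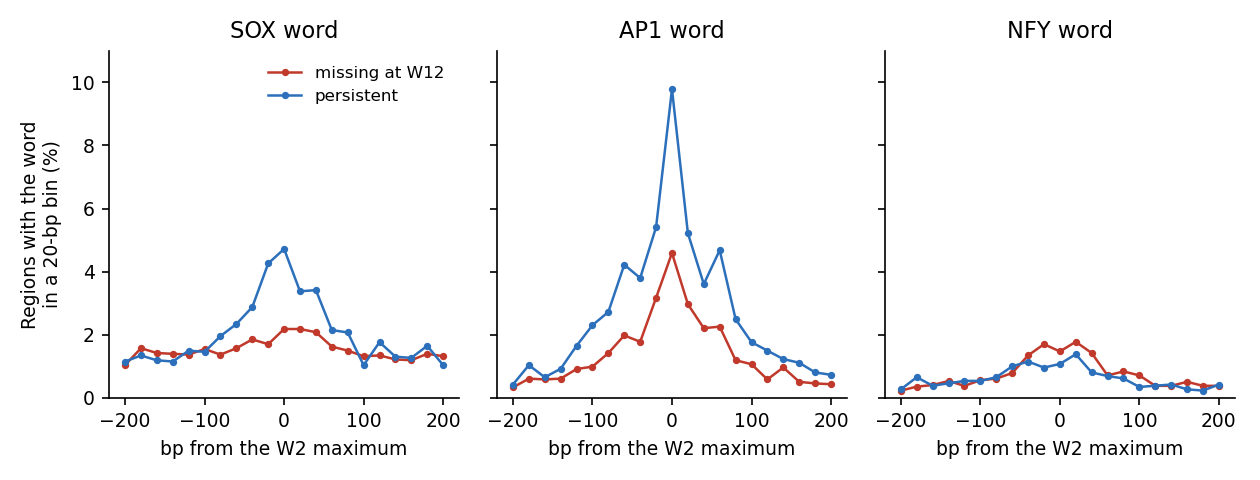
Share of regions (vertical axis, percent) with the SOX, AP1 or NFY word in bins of 20 bp by distance from the W2 maximum (horizontal axis, bp), in members (red) and persistent regions (blue). In the central bin AP1 stood at 4.59% of members and 9.78% of persistent regions, SOX at 2.18% and 4.72%, and NFY at 1.47% and 1.07%.

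Promoter and distal members differed in sequence, and so did promoter and distal persistent regions. At promoters, 14.6% (12.8 to 16.6) of the 1397 members had the NFY word and 4.58% the ETS word. Among the 2546 members farther from a start these were at 2.79% and 0.628%, and AP1 and SOX were at 18% and 11.1% instead of 6.16% and 5.51%. The difference in AP1 was -11.9 points (-13.8 to -9.9), promoter minus distal. Persistent regions had the NFY word in 14.0% at promoters and 2.15% elsewhere, the AP1 word in 13.0% and 27.9% and the SOX word in 11.5% and 18.8%. MLL3/4 at W1 was found on 82.5% of promoter members and 95.7% of distal ones, a difference of -13.2 points (-15.4 to -11.1), and on 91.8% and 97.7% of persistent regions. Of promoter regions 69.7% (67.6 to 71.6) were missing at W12, and of distal ones 56.0% (54.6 to 57.5). Among distal regions alone, the difference between members and persistent regions was -7.69 points (-9.81 to -5.6) in the SOX word and -9.89 points (-12.4 to -7.42) in the AP1 word. In NFY and ETS the distal difference was 0.638 (-0.293 to 1.54) and 0.278 points (-0.164 to 0.708), so both intervals included 0. The distal comparison was chosen after the data were seen.

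In cultured keratinocytes, transgenic SOX9 was seldom on the members. The MYC-tag list of WT-SOX9 with DOX overlapped 275 members (6.97%, 6.22 to 7.81), against 12.2% of all merged regions and 24.1% of persistent regions, a difference of -17.2 points (-19.0 to -15.3), or -10.2 (-12.3 to -8.11) within bins of W6 maximum. The list without DOX, in which transgenic SOX9 is not induced, overlapped 330 members (8.37%, 7.54 to 9.27), against 4.3% of all regions. It was on 10.9% of persistent regions, a difference of -2.49 points (-3.99 to -1.03), which was -4.68 (-6.67 to -2.72) with the list of the first sample alone, of 6707 peaks. Over all members together, overlap with the induced list was therefore no higher than with the uninduced one, in lists of 6671 and 2242 peaks. At promoter members the no-DOX list reached 17.0% and the induced list 11.8%, and at distal members 3.65% and 4.32%. Persistent regions stood, in the same order, at 26.6% and 28.8% at promoters and at 6.05% and 22.7% elsewhere. The dTA list overlapped 13.4% of members (17.5% of all regions, 42.4% of persistent regions), and the dHMG list 10.2% (5.42% of all, 13.5% of persistent). The difference for dTA was -29.1 points (-31.2 to -26.9), and -24.2 (-27.2 to -21.3) within bins of W6 maximum.

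MLL3/4 in culture was on 2630 members without DOX (66.7%, 65.2 to 68.2), against 44.7% of all regions and 79.4% of persistent regions. It was on 17.6% of the regions missing at W12 without D0 MLL3/4. The choice by D0 MLL3/4 bears on the comparisons of members with those regions and with all regions. With DOX it was on 23.6% of members in WT-SOX9 cells (21% of all), 47.2% in dTA cells (33.5% of all) and 53.5% in dHMG cells (34.4% of all). Persistent regions were at 49.8%, 67.9% and 67.2%. Members were lower in each list, with a difference of -12.7 points (-14.8 to -10.5) without DOX and -26.2 points (-28.5 to -23.8) in WT-SOX9 cells with DOX. The MLL3/4 lists held 33975 peaks without DOX and 10543, 25948 and 23301 in WT-SOX9, dTA and dHMG cells, and these lengths move with the shares. Both samples behind the MLL3/4 list of WT-SOX9 cells with DOX are described as biological replicate 2 although numbered apart, so which replicates were pooled is unsure.

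**Figure D4:**
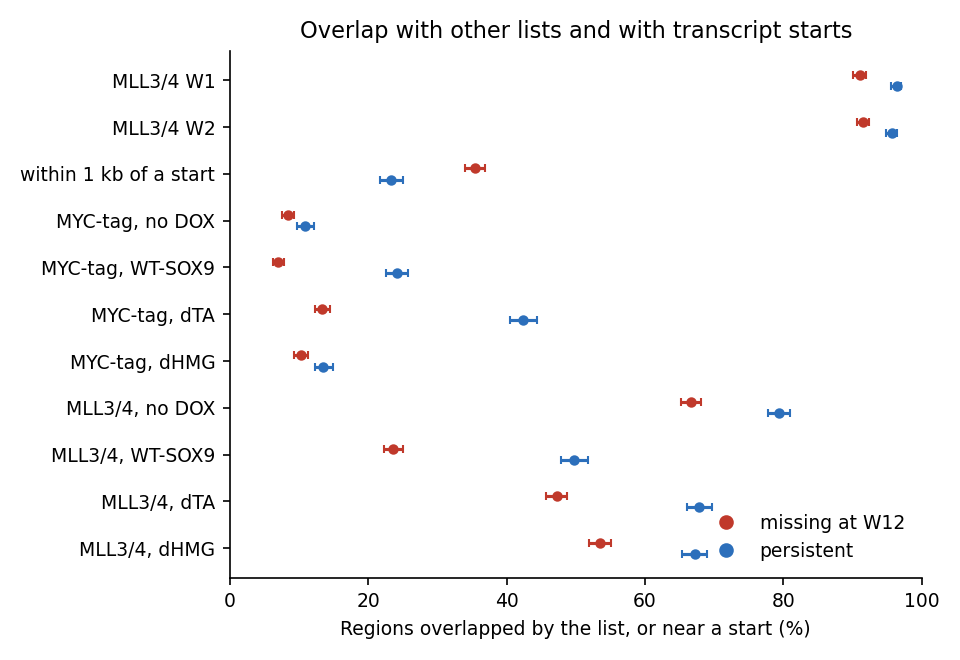
Share of members (red, n = 3943) and persistent regions (blue, n = 2607) overlapped by each list or lying within 1 kb of a transcript start (horizontal axis, percent, with 95% Wilson intervals). Only the promoter share is higher in members, at 35.4% against 23.3%, and MYC-tag dTA stands at 13.4% against 42.4%.

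By the nearest protein-coding start, members were spread over 2728 genes, 12.5% of the 21911 annotated. Of these, 2025 had 1 member and 61 had 5 or more. A persistent region was also nearest to 830 of them (30.4%), and 319 genes had at least 2 members and no persistent region. Genes with wide flanks collect more regions, so counts per gene are a description.

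Gata3, a transcription factor gene of epidermal and hair lineages on chromosome 2, had the most members of any gene, 15, with 2 persistent regions. It lies on the minus strand at chr2:9857078-9890034. One member lay in its own body, at chr2:9877905-9880219, 1103 bp from a start, and the others 97.9 to 753 kb downstream of its 5′ end. The members' maxima ranged from 1844 to 7318 RPKM in the W1 list, with a median of 2996. They ranged from 1834 to 5883 in the W2 list, median 3973, and from 1805 to 4029.8 in the W6 list, median 2393. The highest at W1, at chr2:9375702-9376800, had 7318, 4202 and 2393 RPKM in the W1, W2 and W6 lists. It was picked by its W1 value, so these values describe no course in time. All 15 overlapped MLL3/4 peaks at W1 and at W2. The persistent regions at chr2:9141202-9142065 and chr2:9359968-9360578 had 2666 and 2022 RPKM at W12. The SOX word was in 1 of the 15 windows, the AP1 word in 3 and the GATA word in 0. The number of SOX9 peaks nearest to Gata3 went from 3 in the D0 list to 45, 35, 36 and 10 in W1, W2, W6 and W12, in lists of 792, 15651, 18657, 20579 and 9745 peaks. The Gata3 member highest by its lowest percentile and, for comparison, the persistent region highest by the same measure, which was chosen after its values were seen, read as follows, with SOX cores in capitals.
Gata3 member, chr2:9402427-9402527: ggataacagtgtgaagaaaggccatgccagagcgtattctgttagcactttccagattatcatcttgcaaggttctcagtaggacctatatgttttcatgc
Persistent, nearest Tbl1xr1, chr3:21671925-21672025: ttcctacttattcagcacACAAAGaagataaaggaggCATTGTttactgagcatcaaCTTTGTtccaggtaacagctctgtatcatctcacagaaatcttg
The Gata3 window held no SOX core and reached 4610, 5883 and 3190.3 RPKM in W1, W2 and W6. The persistent one held 3 and reached 18728, 24829, 21324 and, at W12, 13006 RPKM.

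**Figure D5:**
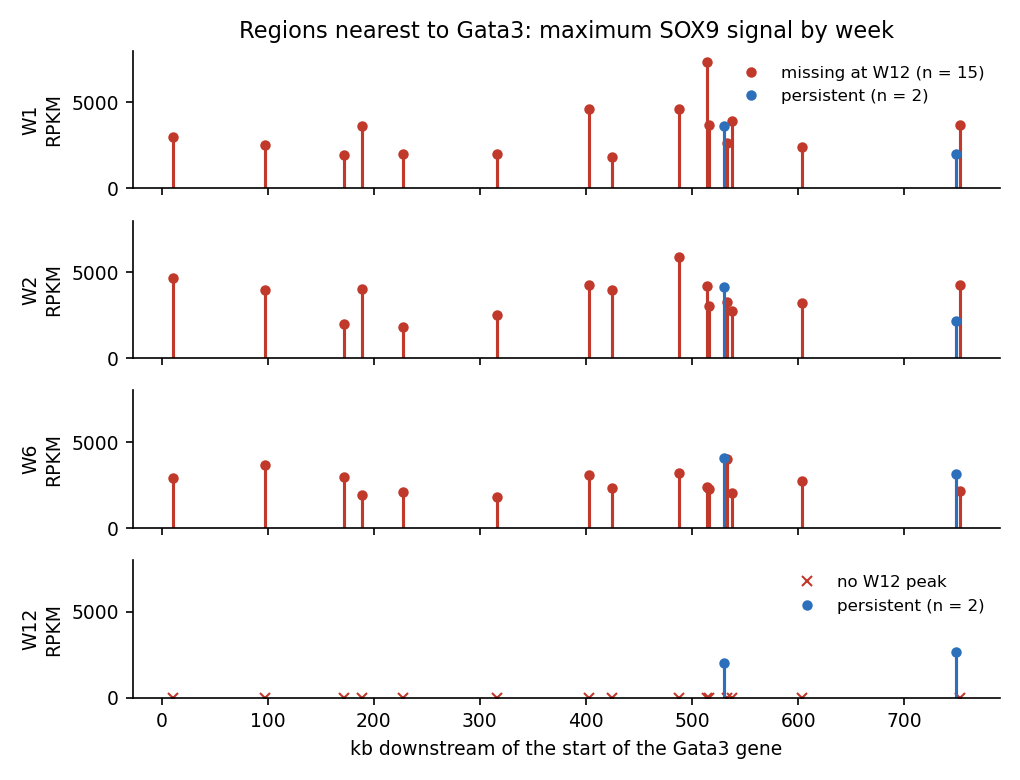
Maximum SOX9 signal in RPKM (vertical axes, 1 panel per week) of the 17 regions nearest to Gata3 by distance downstream of the gene's start (horizontal axis, kb). Of these, 15 members (red) reach up to 7318 RPKM at W1 and have no W12 peak (crosses), and 2 persistent regions (blue) have 2666 and 2022 RPKM at W12.

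The other genes with most members were Chit1, Gm26657, Klf6, Myc and Rad51b, with 8 each, and Barx2, Pde4b, Pde4d and Tle3, with 7 each. Chit1 encodes a chitinase, and its 8 members lay within 14839 bp of its starts, with 0 persistent regions. Barx2, a homeobox gene, and Tle3, a Groucho corepressor gene, also had 0 persistent regions. Around Barx2, SOX9 peaks numbered 17, 18, 19 and 3 in the W1, W2, W6 and W12 lists. Around Tle3 they numbered 11, 13, 16 and 4. Klf6 and Myc, both transcription factor genes, had 5 persistent regions each, and Rad51b, a recombination gene, had 7. Pde4b and Pde4d, which encode enzymes that break down cyclic AMP, had 2 each.

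In all, 10 gene lists were looked up. Members had to overlap a D0 MLL3/4 peak, so the choice itself bears on the share of listed genes with a member. D0 MLL3/4 peaks nearest to the epidermal fate regulators numbered 361, in a list of 37072. Of the 20 epidermal fate regulators, 13 had a member (65%, against 12.5% of all protein-coding genes), 11 of them at least 2. Together they had 49 members and 18 persistent regions, so 73.1% were missing at W12, against 60.2% of all 6550 regions. Without Gata3 it was 34 and 16, or 68%. SOX9 peaks nearest to these 20 genes numbered 22 before induction, then 161, 169, 181 and 62 in the W1, W2, W6 and W12 lists. The whole lists fell from 20579 peaks at W6 to 9745 at W12, and peaks near the AP1 family list from 46 to 16 and near the TGF-beta and BMP list from 86 to 34. The grainyhead-like genes, which drive the epidermal barrier, had members but no persistent region. Grhl1 had 2, Grhl2 had 5 and Grhl3 had 4. The Grhl2 members reached medians of 3227, 4813 and 3694 RPKM in W1, W2 and W6, and the Grhl3 members 3399.8, 4507 and 3421. All 11 overlapped MLL3/4 at W1 and W2. Around Grhl3, SOX9 peaks numbered 5, 7 and 7 at W1, W2 and W6 and 0 at W12, while 2 were left at W12 around Grhl1, which had 11 at D0, and 3 around Grhl2. The highest Grhl2 member is shown because its window held an AP1 word, in capitals, and no SOX core. It also overlapped the MYC-tag lists of dTA and dHMG cells.
Grhl2 member, chr15:37159550-37159650: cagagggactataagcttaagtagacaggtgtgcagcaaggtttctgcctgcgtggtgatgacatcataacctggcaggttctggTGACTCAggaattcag

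Klf4, a factor of terminal differentiation, had 5 members and 1 persistent region, the latter at 1838 RPKM at W12. Tfap2a and Tfap2c, which encode AP-2 factors, had 4 and 2 members with 3 and 0 persistent regions. Prdm1 had 3 members and 1 persistent region, and Hes1, which is also in the Notch list, had 3 and 2. Trp63, the gene of p63, had 2 members and 4 persistent regions.

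The next lists are read against the 12.5% of all protein-coding genes with a member and the 60.2% of all 6550 regions missing. Of the 26 hair follicle regulators 11 had a member (42.3%), with 23 members and 21 persistent regions, 52.3% missing. Sox9 itself had 3 members, all at least 321477 bp from its start, and 2 persistent regions. Nfib had 3 and 3, Nfatc1 2 and 3, Runx1 2 and 3, Tcf7l2 2 and 3, Tle4 3 and 2, and Vdr, the vitamin D receptor gene, 4 and 1. The WNT list had 7 members and 11 persistent regions (38.9% missing), and Lgr4 in it 2 and 3. The EGF receptor list had 6 and 10 (37.5%), and Errfi1, an inhibitor of the receptor, 2 and 2. The Notch list had 17 and 13 (56.7%), with Jag1, a ligand, at 3 and 6, Maml2 at 3 and 2 and Maml3, a coactivator, at 5 and 2.

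The TGF-beta and BMP list had 19 members and 7 persistent regions (73.1% missing, against 60.2% of all 6550 regions), and 66.7% were missing without Tgfbr3. The receptor genes Tgfbr2 and Tgfbr3 had 4 and 5 members and no persistent region, and Id3, a target gene, had 2 and 0. The AP1 family list had 16 and 5 (76.2%). In it Fos and Jun had 3 members and 1 persistent region each, Atf3 had 3 and 0 and Batf3 had 2 and 0. A list of 15 or 20 genes gives few regions, and none of these shares was tested.

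Genes of attachment and structure had members as well, with shares missing near the 60.2% of all 6550 regions. Of the 15 basement membrane adhesion genes 11 had one (73.3%, against 12.5% of all protein-coding genes), with 19 members and 11 persistent regions (63.3%). The choice by D0 MLL3/4 bears on that share of genes as well. The integrin genes Itga6, Itgb4 and Itgb1 had 3, 2 and 2 members and 4, 0 and 0 persistent regions. The laminin gene Lama3 had 3 members and 1 persistent region, and Dst had 2 and 2. Epidermal structure and adhesion genes had 20 members and 12 persistent regions (62.5%). Among them Pkp1 and Cldn1 had 4 members each, Perp had 3, and the desmosome genes Dsp, Dsg3 and Jup had 2 each, with 2, 1, 2, 3, 1 and 1 persistent regions in that order. The actin, migration and mesenchymal list had 16 and 9 (64%), with Actn4 at 4 and 1, Myh9 and Cd44 at 3 members each with 1 and 3, Actn1 at 2 and 1, and Rhob at 2 and 0.

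Members at promoters were nearest to 1233 protein-coding genes. Of the listed genes, 20 had a member within 1 kb of a protein-coding start. The Grhl3 member lay 376 bp from a start and reached 3399.8, 5501 and 3652 RPKM in W1, W2 and W6. Myh9, a non-muscle myosin gene, had a member 86 bp from a start at 3112, 5577 and 3819.9 RPKM. Krt15, a keratin of basal and bulge cells, had one 749 bp away at 2824, 3361 and 2519 RPKM. Id3 had one 43 bp away at 1844, 3667 and 1931 RPKM. Each had its highest value in the W2 list, as had the median of all members, while the Cd151 member, at 2535, 3056 and 3358 RPKM, was highest in the W6 list.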

How the data were processed

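SOX9, MLL3/4 and MYC-tag CNR of mouse EpdSCs and cultured keratinocytes were taken as 18 peak lists, 16 of them called on 2 pooled samples per group and 2 on 1 sample, of a series of 41 samples. CNR of JUN, of ARID1a and of BRG1 is not used here. Per the labels and methods, the authors used Skewer for trimming and Bowtie2 2.2.9 for alignment to mm10, removed duplicates with Picard, kept fragments up to 120 bp (SAMtools 1.3.1), made tracks with deepTools 3.1.2 and called peaks with SEACR (stringent, 0.01). The deposited maximum signal is in RPKM for SOX9, MYC-tag and both single-sample lists, and the authors kept pooled peaks above 1800. In the pooled MLL3/4 lists the deposited signal is unscaled coverage. The deposited total signal, a score, was used only for ranks and for lists of equal length. Depth was read from the step of which all maxima were whole multiples (tolerance 0.05 fragments), which implied 13.1 to 32.5 M fragments per SOX9 list. This holds only for tracks in bins of 1 bp that counted each fragment once, which the methods do not state. The depth of the MLL3/4 lists is unknown. Samples were grouped by their labels.

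Regions, classes, windows of 50 bp to each side of the W2 maximum and nearest starts (GENCODE vM21) were computed with Python 3.11.15, pandas 2.3.3, numpy 2.4.6 and pysam 0.24.0. Peaks on the mitochondrial sequence were left out. Shares have 95% Wilson and differences 95% Newcombe intervals. Differences within 5 bins of W6 maximum were weighted by bin size and have normal intervals, as have differences of mean percentiles. The code was tested on simulated data. Regions named are the 6 of highest lowest percentile. Genes named are the 10 nearest to most members and every listed gene with at least 2, except some that are not reported here. Krt15 and Id3 promoters, Grhl2 and Gata3 windows and the persistent window were chosen after their values were seen. The members and gene lists were chosen with earlier results of these data known. Alternatives were other lists, merging, overlaps, windows, words and promoters.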

Additional observations from a re-analysis of the deposited data

How the results depend on the processing

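No paired analysis was possible because each group has 1 list of pooled samples, and for the same reason samples could not be left out in turn, except that the groups without DOX also have a list of the first sample alone. With these lists the difference was -4.68 points in place of -2.49 for MYC-tag and -11.8 for MLL3/4. The number of members fell from 3943 to 1579 with W1, W2 and W6 lists cut to the length of the W12 list, and to 193 with maxima above 3600 RPKM at W1, W2 and W6. The share missing at W12 was then 45.7% and 15.6%, and 59.0% with peaks merged within 500 bp and 57.2% with no W12 peak within 1 kb. Above 3600 RPKM, intervals of the difference between members and persistent regions included 0 for the promoter share (0.584 points), the AP1 (-3.77), KLF (0.260), GATA (1.81), NFY (3.28) and RUNX (-0.222) words, MLL3/4 at W2 (-0.790) and MYC-tag without DOX (-2.69) and in dHMG cells (-3.93), where fewer regions were left. For MLL3/4 at W2 they also did within bins of W6 maximum (-1.70) and in distal regions alone (-0.615). Intervals also included 0 for RUNX with lists of equal length (-0.341), within bins (-1.08) and in distal regions (-0.795), for NFY within bins (1.36) and in distal regions (0.638), for ETS in distal regions (0.278), for GATA with peaks merged within 500 bp (0.714), for MYC-tag without DOX with lists of equal length (-1.78) and for MYC-tag in dHMG cells without regions on the no-DOX list (-1.30). The ETS difference turned to -0.0555 above 3600 RPKM and the TEAD difference to 0.0197 in distal regions, and the cause was not tested. The SOX word (-12.0 to -2.03 points over 14 alternatives), MLL3/4 at W1 (-5.48 to -0.834), MYC-tag of WT-SOX9 with DOX (-27.6 to -10.2) and MLL3/4 without DOX (-16.5 to -10.4) kept their direction, with intervals that left out 0. SOX9 lists hold nothing below their limit of 1800 RPKM, which limits what missing at W12 shows. In the W12 list 1 fragment was worth 46.0 RPKM, against 42.0 to 76.4 in the lists of W1 to W6.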

Other observations

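SOX9 binds some sites as a dimer, on paired words that face each other. In members, 4 windows (0.101%) held 2 SOX cores facing each other 3 to 5 bases apart, against 13 persistent regions (0.499%), a difference of -0.397 points (-0.755 to -0.136). Regions missing at W12 without D0 MLL3/4 had such a pair in 24 cases (2.21%), the highest share of the classes compared. A SOX core and an AP1 word stood in the same window in 86 members (2.18%) and 148 persistent regions (5.68%). Regions with D0 MLL3/4 that were bound at W1 and W2 and at neither W6 nor W12, 1340 in number, were close to the members in the SOX word (8.88% against 9.13%, a difference of 0.25 points, -1.60 to 1.94) and lower in the AP1 word (9.03% against 13.8%) and at promoters (22.3% against 35.4%). These 1340 regions were also lower in the KLF (6.64% against 10.5%) and NFY words (3.66% against 6.97%). They were higher in the GATA (5.52% against 2.79%) and TEAD words (9.85% against 6.26%).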
